A study of Homo sapiens with 9 samples.

Results

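The genes described here are 42 genes of the lysosome, its proton pump and the autophagy pathway, picked by symbol for their known function, by a rule that uses no measured value but was written with earlier results of these data known. They comprise 3 transcription factors of the MiT/TFE family, 3 selective autophagy receptors, 4 genes of the ATG8 family, 12 genes of autophagy initiation and membrane growth, 3 lysosomal membrane proteins, 5 cathepsins, 3 other lysosomal enzymes or activators, and 9 subunits or accessory proteins of the vacuolar proton pump (V-ATPase). All 42 were found among the 19317 genes of the deposited table, and all 42 passed the filter on low counts. Expression was measured by RNA sequencing of total RNA from HepG2, an established human liver tumor cell line, in 3 groups of 3 samples. DNL samples, the study's model of de novo lipogenesis, were given insulin at 10 µg/ml and the LXR (liver X receptor) agonist T0901317 at 10 µM, in DMEM for 1 week. OA samples, its model of steatosis by fatty acid supply, were given oleic acid at 25 µM, carried in 11% bovine serum albumin in PBS, in DMEM for 6 hours. WT samples were controls in RPMI, and the labels give no added compound for them. All media held 10% fetal bovine serum and 1% penicillin and streptomycin, and all samples came from 1 unmodified cell line.

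Medium, compounds and duration change together between either model and WT, and no sample had DMEM alone or albumin alone, so these cannot be told apart. Between DNL and OA, both in DMEM, compounds and duration change together, and these cannot be told apart either. The sample titles and treatment labels gave the groups, since a general protocol field carries the DNL recipe for every sample. The labels do not say whether the replicates of a group were separate cultures, and every p-value below therefore rests on the variation among 3 samples per group that may be technical.

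Lysosomes are acidic organelles in which hydrolases, the cathepsins among them, digest material from endocytosis and autophagy, and the V-ATPase pumps the protons that keep them acidic. In autophagy a kinase complex around ULK1 and a lipid kinase complex around BECN1 start a membrane, ATG proteins attach ATG8 proteins to it, receptors such as SQSTM1 link cargo to the ATG8 proteins, and the closed vesicle fuses with a lysosome. TFEB, TFE3 and MITF are transcription factors that nutrient signalling keeps in the cytoplasm, and in the nucleus they bind E-box motifs of lysosomal and autophagy genes. In liver cells autophagy also breaks down lipid droplets, and lysosomal acid lipase cleaves the lipids delivered by it.

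Because MiT/TFE factors are known to bind the sequence CACGTG, the promoter windows of the genes were searched for it. RefSeq windows on GRCh38.p14, from 250 bases before the annotated start to 50 after it, were at hand for 32 of the 42 genes. None was at hand for UVRAG, LAMP2, CTSB, HEXA, PSAP, ATP6V0E1, ATP6V1A, ATP6V1B2, ATP6V1C1 and ATP6V1H. CACGTG stood in 6 of these 32 windows (18.8%), against 1362 of 15293 windows (8.91%) of all genes of the table that had one. The longer form TCACGTGA stood in 4 of 32 windows (12.5%), against 225 of 15293 (1.47%). The full CLEAR palindrome, which is TCACGTGA with G before it and C after it, stood in 1 of 32 windows (3.12%), that of MCOLN1, against 91 of 15293 (0.595%). All 3 motifs read alike on both strands, and each longer motif contains the shorter ones. The 6 windows with a match are shown from 200 bases before the start to 20 after it, 5′ to 3′ on the gene's strand, with CACGTG in capitals. They lie at chr13:113297039-113297258 (plus strand) for LAMP1, chr19:7522424-7522643 (plus) for MCOLN1, chr20:45891135-45891354 (plus) for CTSA, chr11:1763908-1764127 (minus) for CTSD, chr16:67481138-67481357 (minus) for ATP6V0D1 and chr14:55411811-55412030 (minus) for ATG14.
LAMP1: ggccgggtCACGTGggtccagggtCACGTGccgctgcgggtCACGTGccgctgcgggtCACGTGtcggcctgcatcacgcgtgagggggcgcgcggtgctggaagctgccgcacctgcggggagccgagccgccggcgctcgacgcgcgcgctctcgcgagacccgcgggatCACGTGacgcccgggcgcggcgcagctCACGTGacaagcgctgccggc
MCOLN1: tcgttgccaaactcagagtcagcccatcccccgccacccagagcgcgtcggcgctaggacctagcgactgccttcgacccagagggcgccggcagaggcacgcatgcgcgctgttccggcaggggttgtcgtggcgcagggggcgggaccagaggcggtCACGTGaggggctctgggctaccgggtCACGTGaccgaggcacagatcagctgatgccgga
CTSA: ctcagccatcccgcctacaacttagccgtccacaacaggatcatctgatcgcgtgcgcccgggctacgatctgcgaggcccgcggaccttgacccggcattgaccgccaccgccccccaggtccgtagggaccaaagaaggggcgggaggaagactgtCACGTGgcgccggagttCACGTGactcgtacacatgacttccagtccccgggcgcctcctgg
CTSD: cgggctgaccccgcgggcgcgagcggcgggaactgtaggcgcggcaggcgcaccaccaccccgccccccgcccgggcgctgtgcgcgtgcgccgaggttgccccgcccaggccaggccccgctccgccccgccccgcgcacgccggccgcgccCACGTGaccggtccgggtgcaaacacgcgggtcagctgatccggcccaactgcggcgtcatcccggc
ATP6V0D1: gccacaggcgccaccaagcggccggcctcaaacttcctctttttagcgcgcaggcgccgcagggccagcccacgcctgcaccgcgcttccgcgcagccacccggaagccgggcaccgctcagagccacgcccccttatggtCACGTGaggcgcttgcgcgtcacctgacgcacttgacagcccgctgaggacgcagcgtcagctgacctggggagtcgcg
ATG14: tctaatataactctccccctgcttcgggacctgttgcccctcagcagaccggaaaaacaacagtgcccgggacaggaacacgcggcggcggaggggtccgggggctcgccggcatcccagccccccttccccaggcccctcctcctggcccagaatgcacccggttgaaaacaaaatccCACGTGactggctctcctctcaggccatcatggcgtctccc

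The LAMP1 window held 6 copies, which begin 192, 176, 159, 142, 28 and 1 bases before the start. MCOLN1 held 2 copies (41 and 14 bases before the start), both within TCACGTGA, and CTSA held 2 (42 and 25 bases before). CTSD, ATP6V0D1 and ATG14 held 1 each, beginning 47, 59 and 21 bases before the start. These matches are a description of the letters in the windows and show no binding. The genes were picked by function and these factors are known to bind such genes, so the shares are no independent test.

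DNL libraries held 16447398 to 36147431 estimated counts, OA libraries 7836520 to 28636903, and WT libraries 26425694 to 43043347. The lowest estimated count of any of the 42 genes in any library was 10, above the 3 counts that a reading of 0 would allow. Levels are given as CPM, a library's counts brought to a common depth with TMM scaling. The hepatocyte markers fixed for this check (ALB, AFP, APOA1, APOB, TF, TTR, SERPINA1, HNF4A) were all measured. Together they reached 74051 to 76116 CPM in DNL libraries, 13180 to 15211 CPM in OA libraries and 40964 to 42570 CPM in WT libraries. APOB made up most of these sums, averaging 49004 CPM in DNL, 8768 CPM in OA and 30206 CPM in WT. Of the 8 markers 6 were called higher and 1 lower in DNL against WT, where all genes gave 27.1% and 26.8%. HNF4A averaged 481 CPM in DNL and 567 CPM in WT, and AFP 2045 CPM in DNL and 2020 CPM in WT. In OA against WT 0 of the 8 markers were called higher and 7 lower, where all genes gave 30.4% and 29.7%. In DNL against OA 8 were called higher and 0 lower, where all genes gave 31.9% and 30.9%. Macrophage and leukocyte markers summed to 6.23 to 8.12 CPM in DNL, to 0.758 to 0.950 CPM in OA and to 2.81 to 4.17 CPM in WT. CD14 made up most of the DNL and WT sums, averaging 6.25 CPM in DNL, 0.286 CPM in OA and 2.77 CPM in WT. PTPRC averaged 0.486 CPM in DNL, 0.327 CPM in OA and 0.704 CPM in WT, and CD163 and MARCO were at 0 throughout. Endothelial markers summed to 5.27 to 6.92 CPM in DNL, to 0.923 to 2.14 CPM in OA and to 1.52 to 1.96 CPM in WT. The 5 markers listed for fibroblasts set the OA libraries apart, with sums of 34.7, 141 and 876 CPM in OA replicates 1, 2 and 3, against 1.66 to 1.88 CPM in DNL and 9.55 to 12.9 CPM in WT. Collagens made up most of these sums, with COL1A1 at 19.3, 85.002 and 537 CPM in OA, 0.399 to 0.706 CPM in DNL and 0.622 to 0.990 CPM in WT, and COL1A2 listed at 0 in every DNL and WT library. Of the 5 markers 3 were called higher in OA than in WT and 1, PDGFRB, lower, at 2.37, 4.35 and 7.60 CPM in OA and 8.71 to 11.6 CPM in WT. Whether the collagen reads come from the cells of these samples or from another source was not tested, and OA values carry this limit. The part that these marker differences have in the results below was not tested either. In bulk samples fewer cells of a type and less RNA per cell cannot be told apart. Results for OA are also given without OA replicates 2 and 3, an alternative chosen after seeing the data.

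Cells held for a week with insulin and the LXR agonist were first set against the RPMI controls. Of the 42 genes, 18 were higher and 12 lower in DNL (edgeR's quasi-likelihood test, Benjamini-Hochberg adjusted p under 0.05), which is 71.4% called, where 53.8% of all 13636 genes tested were called. The share that rose was 42.9%, against 27.1% of all genes, and the share that fell, 28.6%, was near the 26.8% of all genes. Called changes of at least 2-fold were 2 higher (LAMP2 and ATP6AP1) and 2 lower (TFEB and GABARAPL1), where 7.21% of all genes were so called higher and 5.07% lower. The median log2 fold change was 0.06 over the 42 genes and -0.02 over all genes. DNL and WT libraries did not overlap for 32 of the 42 genes, where 64.7% of all genes did not overlap. With scaling by library totals, which put the median of all genes at -0.18 and the share of higher calls at 32.2% in place of 50.3%, 16 of the 42 rose and 16 fell.

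Cells given albumin-bound oleic acid for 6 hours were then set against the same controls. Here 28 genes rose and 6 fell, 81% called, where 60% of all genes were called. The share that rose was 66.7%, against 30.4% of all genes, and the share that fell was 14.3%, against 29.7%. Called changes of at least 2-fold were 5 higher (GLA, SQSTM1, MITF, ATG16L1 and GABARAPL1) and 0 lower, where 8.88% of all genes were so called higher and 7.95% lower. The median was 0.39 over the 42 genes and -0.03 over all genes. Libraries of the 2 groups did not overlap for 35 genes, where 65.7% of all genes did not overlap. Without OA replicates 2 and 3, 27 rose and 6 fell, and without OA replicates 1 and 3, the shallowest libraries, 27 rose and 3 fell.

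DNL and OA share the WT samples in the comparisons above, so the difference between the models was tested directly. In DNL against OA 13 genes were higher and 21 lower, 81% called, where 62.8% of all genes were called. The share that was lower in DNL was 50%, against 30.9% of all genes, and the share that was higher, 31.0%, was near the 31.9% of all genes. Called differences of at least 2-fold were 1 higher (CTSD) and 9 lower (GABARAPL1, SQSTM1, CTSL, MITF, ULK1, WIPI1, TFE3, ATG13 and GLA), where 10.1% of all genes were so called higher and 9.94% lower. The median was -0.19 over the 42 genes and 0.01 over all genes. The 2 groups did not overlap for 36 genes, where 66.2% of all genes did not overlap. Scaling by library totals moved the median of all genes to -0.22 and the share of higher calls to 33.9%, in place of 50.8%, and gave 9 higher and 25 lower. Without OA replicates 2 and 3, 12 were higher and 18 lower.

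**Figure D1:**
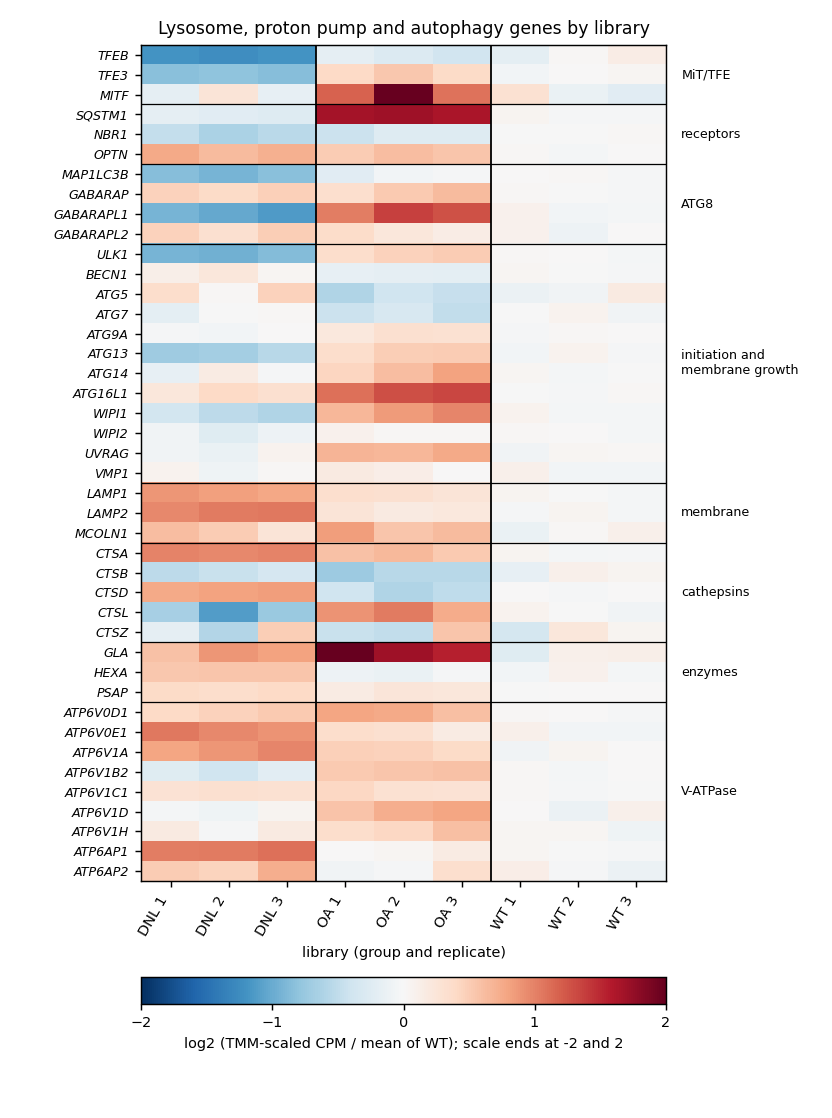
Level of each of the 42 genes in each library as log2 of TMM-scaled CPM over the mean of the 3 WT libraries, in columns for DNL, OA and WT replicates 1 to 3 and in rows grouped by role; red is higher and blue lower, and the color scale ends at -2 and 2. LAMP1, LAMP2, CTSA and ATP6AP1 are red in all 3 DNL columns, TFEB, ULK1 and GABARAPL1 are blue there, and SQSTM1, ATG16L1 and GLA are red in all 3 OA columns.

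The MiT/TFE factors fell in DNL except for MITF. In DNL against WT 0 of 3 rose and 2 fell, where 27.1% of all genes rose and 26.8% fell. In OA against WT 2 rose and 0 fell, where 30.4% of all genes rose and 29.7% fell. In DNL against OA all 3 were lower, as were 30.9% of all genes. TFEB (ENSG00000112561, chromosome 6, 41683978 to 41736259, GRCh38), a master regulator of lysosome genes, had 5.94, 5.72 and 5.94 CPM in DNL, 12.003, 11.2 and 10.5 CPM in OA, and 11.9, 13.7 and 15.1 CPM in WT. The DNL libraries lay below all others, while OA and WT overlapped. TFEB fell by 1.21 on the log2 scale in DNL against WT (SE 0.127, adjusted p 4.01e-06) and by 0.94 in DNL against OA (SE 0.131, adjusted p 3.56e-05). In OA against WT its log2 fold change was -0.27 (adjusted p 0.0776). Without WT replicate 1 that value was -0.36 with adjusted p 0.0418, the lowest of 20 alternatives, whose adjusted p reached 0.447.

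TFE3 (ENSG00000068323, chromosome X, 49028726 to 49043486), a close relative of TFEB, had 43.9, 45.0 and 43.5 CPM in DNL, 103, 114 and 102 CPM in OA, and 75.4, 78.9 and 80.6 CPM in WT. The 3 groups did not overlap, with DNL lowest and OA highest. TFE3 fell by 0.83 on the log2 scale in DNL against WT (SE 0.0577, adjusted p 8.53e-08), rose by 0.45 in OA against WT (SE 0.0566, adjusted p 1.61e-05) and was lower by 1.28 in DNL against OA (log2 fold change -1.28, adjusted p 8.41e-10). MITF (chromosome 3, 69739435 to 69968337), better known from melanocytes, was near the detection limit, with 0.493, 0.665 and 0.499 CPM in DNL, 1.26, 2.41 and 1.19 CPM in OA, and 0.691, 0.508 and 0.475 CPM in WT. All OA libraries lay above the rest. MITF rose in OA against WT with a log2 fold change of 1.57 (SE 0.396, adjusted p 0.00405), and without OA replicate 2 the value was 1.12 with adjusted p 0.0569. In DNL against OA its log2 fold change was -1.63 (adjusted p 0.00381), and -1.17 without OA replicate 2 (adjusted p 0.0505). Without OA replicates 2 and 3 both calls were lost, at adjusted p 0.126 and 0.111, the highest of 20 alternatives, which began at 0.00187 and 0.00141. DNL and WT libraries overlapped for MITF (log2 fold change -0.05, adjusted p 0.923).

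The receptor SQSTM1 (p62) carried the largest rise in OA against WT among the 3 receptors and 4 ATG8 genes of the 42. SQSTM1 (ENSG00000161011, chromosome 5, 179806398 to 179838078), which binds ubiquitinated cargo and is itself degraded by autophagy, had 272, 262 and 258 CPM in DNL, 969.8, 1001 and 956 CPM in OA, and 318, 302 and 303 CPM in WT. OA libraries stood far above both other groups, and the DNL libraries lay just below those of WT. SQSTM1 rose 3.17-fold in OA against WT (log2 fold change 1.67, SE 0.0386, adjusted p 4.82e-12), and the log2 value was 1.65 without OA replicates 2 and 3. It fell by 0.22 in DNL against WT (SE 0.0380, adjusted p 0.000302) and its log2 fold change in DNL against OA was -1.89 (SE 0.0390, adjusted p 7.85e-13). Its exons share 1582 bases with MRNIP on the opposite strand, and MRNIP averaged 6.08 CPM in DNL, 2.38 CPM in OA and 6.34 CPM in WT.

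NBR1, a receptor related to SQSTM1 in its domains, fell against WT in both models. It had 192, 173 and 185 CPM in DNL, 198, 224 and 223 CPM in OA, and 265, 265 and 271 CPM in WT, with no overlap between any of the groups. Its log2 fold changes were -0.54 in DNL against WT (adjusted p 2.17e-06), -0.31 in OA against WT (adjusted p 0.000225) and -0.23 in DNL against OA (adjusted p 0.00245), the last of which was -0.11 with adjusted p 0.174 without OA replicates 2 and 3, the highest adjusted p of its 20 alternatives. OPTN (optineurin), a receptor in the removal of damaged mitochondria, rose in both models. It had 71.3, 65.4 and 68.9 CPM in DNL, 59.8, 64.5 and 62.2 CPM in OA, and 42.7, 41.2 and 42.6 CPM in WT. Both models lay above WT, with log2 fold changes of 0.70 for DNL (adjusted p 3.49e-07) and 0.56 for OA (adjusted p 2.51e-06). Between DNL and OA the value was 0.14 (adjusted p 0.0501), which became 0.18 without DNL replicate 2 (adjusted p 0.0313) and 0.17 without OA replicate 2 (adjusted p 0.0429), in a range of 0.0313 to 0.534 over 20 alternatives.

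The 4 ATG8 genes, whose small proteins are coupled to the lipid of the autophagosome membrane, did not move as one. In DNL against WT 2 rose and 2 fell, in OA against WT 3 rose and 0 fell, and in DNL against OA 2 were lower and 0 higher. All genes gave 27.1% higher and 26.8% lower in DNL against WT, and 30.4% and 29.7% in OA against WT. In DNL against OA all genes gave 31.9% higher and 30.9% lower. GABARAPL1 (ENSG00000139112, chromosome 12, 10212458 to 10223130) had 20.8, 19.5 and 18.0 CPM in DNL, 80.9, 102 and 96.2 CPM in OA, and 42.009, 38.2 and 38.7 CPM in WT. The groups were fully separate, with DNL lowest and OA highest. GABARAPL1 fell by 1.03 on the log2 scale in DNL against WT (SE 0.0915, adjusted p 8.67e-07), rose by 1.24 in OA against WT (SE 0.0873, adjusted p 7.76e-08) and had the lowest log2 fold change of the 42 genes in DNL against OA, -2.26 (SE 0.0932, adjusted p 3.11e-10). Without OA replicates 2 and 3 the OA value was 1.03.

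MAP1LC3B (ENSG00000140941, chromosome 16, 87383995 to 87404779), the LC3B protein commonly used to count autophagosomes, had 228, 217 and 230.1 CPM in DNL, 352, 397 and 405 CPM in OA, and 413, 419 and 404 CPM in WT. DNL libraries lay below all others, and OA reached into the range of WT. It fell by 0.87 in DNL against WT (SE 0.0499, adjusted p 1.3e-08), and its log2 fold change in DNL against OA was -0.77 (SE 0.0503, adjusted p 2.39e-08). In OA against WT the value was -0.10 (adjusted p 0.104). That value was -0.14 without OA replicate 3 (adjusted p 0.0430) and -0.23 without OA replicates 2 and 3 (adjusted p 0.00294), the lowest adjusted p of 20 alternatives, which reached 0.593. A near-identical copy, MAP1LC3B2, was counted at 1.46 to 6.77 CPM, and how the estimator divided reads between the copies is uncertain. MAP1LC3B also shares 150 exonic bases on the opposite strand with FBXO31, which averaged 107 CPM in DNL, 91.0 CPM in OA and 164 CPM in WT.

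GABARAP had 108, 102 and 108 CPM in DNL, 98.5, 112 and 120.4 CPM in OA, and 79.6, 77.8 and 76.7 CPM in WT. GABARAPL2 had 67.0, 60.5 and 68.8 CPM in DNL, 62.7, 56.7 and 53.9 CPM in OA, and 51.7, 45.4 and 49.0 CPM in WT. For both genes every DNL and OA library lay above WT, and DNL and OA overlapped. GABARAP rose by 0.44 in DNL (SE 0.0644, adjusted p 7.11e-05) and by 0.50 in OA (SE 0.0653, adjusted p 2.36e-05). GABARAPL2 rose by 0.43 in DNL (SE 0.0737, adjusted p 0.000301) and by 0.25 in OA (SE 0.0754, adjusted p 0.0127). The OA call of GABARAPL2 was lost when OA replicate 1 (adjusted p 0.0556) or WT replicate 2 (adjusted p 0.0665) was left out, in a range of 0.00296 to 0.0752 over 20 alternatives. Between DNL and OA the log2 values were -0.05 for GABARAP (adjusted p 0.499) and 0.18 for GABARAPL2 (adjusted p 0.0532). The GABARAPL2 difference became 0.24 without DNL replicate 2 (adjusted p 0.0226) and 0.24 without OA replicate 1 (adjusted p 0.0151), in a range of 0.0151 to 0.612. With scaling by library totals GABARAP was lower in DNL than in OA (log2 fold change -0.29, adjusted p 0.00155).

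**Figure D2:**
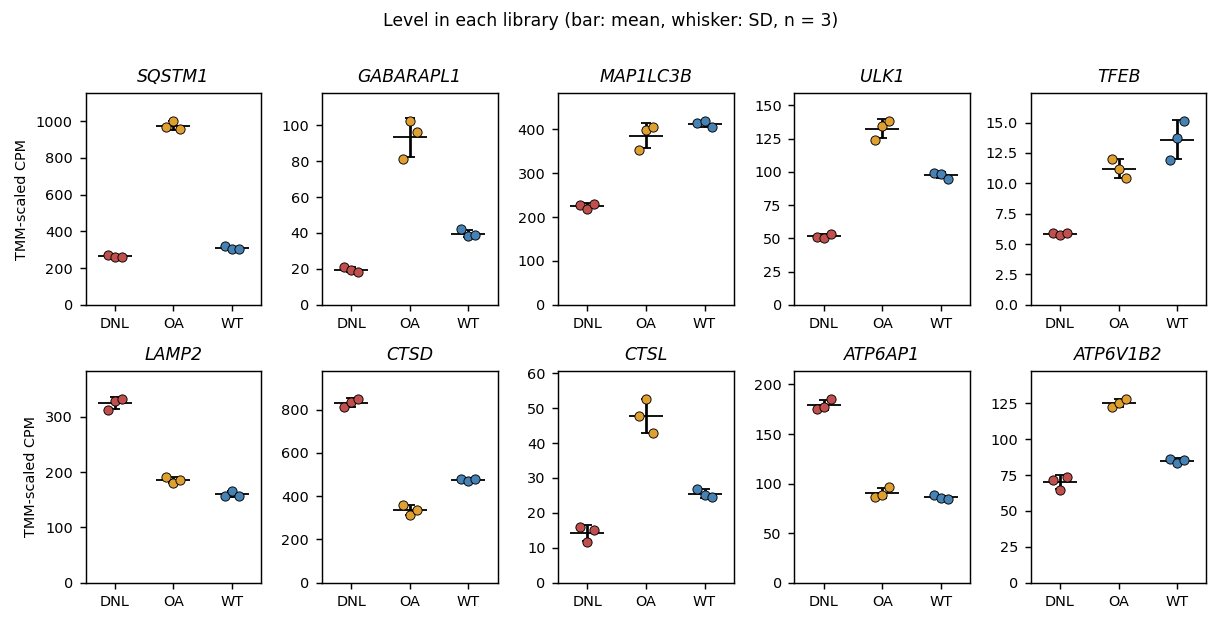
TMM-scaled CPM in each library for 10 of the genes, with DNL, OA and WT from left to right, a bar at the mean and whiskers for the SD (n = 3), on linear axes from 0. SQSTM1, GABARAPL1, ULK1, CTSL and ATP6V1B2 are highest in OA, and LAMP2, CTSD and ATP6AP1 are highest in DNL.

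Of the 12 genes that start and extend the autophagosome membrane, 1 rose and 3 fell in DNL against WT, a call rate of 33.3% that lay below the 53.8% of all genes. In OA against WT 7 (58.3%) rose and 3 (25%) fell, where all genes gave 30.4% and 29.7%. In DNL against OA 3 (25%) were higher and 8 (66.7%) lower, where all genes gave 31.9% and 30.9%. With scaling by library totals the counts in DNL against WT became 0 higher and 7 lower, as ATG9A, WIPI2, UVRAG and VMP1 then fell and ATG16L1 lost its call (adjusted p 0.130, the highest of 20 alternatives). ULK1 (ENSG00000177169, chromosome 12, 131894651 to 131923167), the kinase at the start of autophagy, had 51.2, 50.2 and 53.1 CPM in DNL, 124, 134 and 138 CPM in OA, and 99.1, 98.1 and 94.8 CPM in WT. DNL was lowest and OA highest, with no overlap. ULK1 fell by 0.92 in DNL against WT (SE 0.0532, adjusted p 1.51e-08), rose by 0.44 in OA against WT (SE 0.0522, adjusted p 8.9e-06) and was lower in DNL than in OA (log2 fold change -1.36, SE 0.0542, adjusted p 2.26e-10).

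ATG13, the regulatory partner of ULK1, followed the same order, with 139, 142 and 155 CPM in DNL, 292, 323 and 326 CPM in OA, and 221, 239 and 225 CPM in WT. WIPI1, which reads phosphatidylinositol 3-phosphate on the growing membrane, had 38.5, 34.4 and 32.6 CPM in DNL, 78.6, 89.4 and 98.2 CPM in OA, and 52.3, 48.5 and 48.2 CPM in WT. For both genes DNL lay lowest and OA highest without overlap. Their log2 fold changes in DNL against WT were -0.65 for ATG13 (adjusted p 5.22e-07) and -0.50 for WIPI1 (adjusted p 0.000298). In OA against WT they were 0.46 for ATG13 (adjusted p 9.97e-06) and 0.83 for WIPI1 (adjusted p 2.26e-06). ATG13 also had -1.11 (adjusted p 2e-09) and WIPI1 -1.33 (adjusted p 2.55e-08) in DNL against OA. WIPI1 shares 828 exonic bases on the opposite strand with ARSG, which averaged 15.2 CPM in DNL, 8.78 CPM in OA and 34.4 CPM in WT.

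ATG16L1 (ENSG00000085978, chromosome 2, 233210051 to 233295674), the scaffold that places ATG8 coupling on the membrane, had 28.2, 31.9 and 30.3 CPM in DNL, 51.6, 59.2 and 61.3 CPM in OA, and 24.1, 23.8 and 24.6 CPM in WT. Both models lay above WT, OA by far the more. ATG16L1 rose by 1.25 in OA against WT (SE 0.0782, adjusted p 2.57e-08) and by 0.31 in DNL against WT (SE 0.0781, adjusted p 0.00431), with -0.93 in DNL against OA (adjusted p 2.95e-07). Its partner ATG5 went the other way in OA, with 17.3, 13.8 and 18.6 CPM in DNL, 8.92, 10.2 and 9.86 CPM in OA, and 12.5, 12.9 and 15.3 CPM in WT. OA lay below both other groups, and DNL overlapped WT. ATG5 fell by 0.48 in OA against WT (SE 0.135, adjusted p 0.00792) and was higher in DNL than in OA (log2 fold change 0.78, SE 0.136, adjusted p 0.000239). Between DNL and WT its value was 0.30 (adjusted p 0.0652), and 0.42 without DNL replicate 2 (adjusted p 0.0160) or 0.39 when WT replicate 3 was left out (adjusted p 0.0413), in a range of 0.00774 to 0.412 over 20 alternatives.

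ATG5 in OA against WT lost its call without OA replicates 1 and 3 (adjusted p 0.0856), as did ATG7 (adjusted p 0.0703), each the highest of 20 alternatives. ATG7, the enzyme that activates ATG8 proteins for coupling, had 13.7, 15.6 and 16.0 CPM in DNL, 11.7, 12.6 and 11.2 CPM in OA, and 15.8, 16.6 and 15.0 CPM in WT. OA lay below both groups, by 0.41 on the log2 scale against WT (log2 fold change -0.41, SE 0.105, adjusted p 0.00461), and DNL overlapped WT (log2 fold change -0.06, adjusted p 0.620). DNL was above OA by 0.34 (adjusted p 0.0127), and without OA replicates 2 and 3, with 1 OA library left, the value was 0.37 (adjusted p 0.0691), in a range of 0.00755 to 0.387 over 20 alternatives. ATG7 shares 1596 exonic bases on the opposite strand with VGLL4, which drew more reads, at 86.1 CPM in DNL, 71.6 CPM in OA and 82.7 CPM in WT. BECN1, the core of the lipid kinase complex, had 75.2, 81.2 and 71.3 CPM in DNL, 61.8, 61.4 and 60.8 CPM in OA, and 70.9, 68.7 and 68.4 CPM in WT. OA lay below both other groups, and DNL lay just above WT. BECN1 fell by 0.18 in OA against WT (adjusted p 0.0176) and was higher in DNL than in OA (log2 fold change 0.31, adjusted p 0.000473), which scaling by library totals reduced to 0.072 (adjusted p 0.295, the highest of 20 alternatives). The fall in OA lost its call when WT replicate 1 was left out (log2 fold change -0.15, adjusted p 0.0679), and without OA replicates 2 and 3, where the fold change was nearly the same and 1 OA library was left (-0.17, adjusted p 0.1095), in a range of 0.0118 to 0.117. BECN1 in DNL against WT was 0.13 (adjusted p 0.0707), and 0.17 without DNL replicate 3 (adjusted p 0.0300), in a range of 0.0300 to 0.592. On the opposite strand BECN1 shares 300 exonic bases with PSME3, which averaged 191 CPM in DNL, 197 CPM in OA and 259 CPM in WT. It also shares 795 with CNTD1, which averaged 0.0924 CPM in DNL, 0.0725 CPM in OA and 0.0718 CPM in WT.

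The partners of BECN1 described here, ATG14 and UVRAG, rose in OA. Not every other gene of the lipid kinase complex was higher in OA than in WT. PIK3C3 averaged 45.8 CPM in OA and 52.8 CPM in WT. PIK3R4 averaged 41.7 CPM in OA and 35.4 CPM in WT, and NRBF2 64.8 CPM in OA and 34.9 CPM in WT. ATG14, which brings the lipid kinase to autophagosome formation, had 20.4, 25.7 and 22.6 CPM in DNL, 30.9, 35.2 and 40.3 CPM in OA, and 23.6, 22.4 and 22.9 CPM in WT. UVRAG, which serves the same kinase at later steps, had 45.6, 43.6 and 50.2 CPM in DNL, 76.8, 76.1 and 81.0 CPM in OA, and 45.7, 49.5 and 48.8 CPM in WT. OA was above both groups for ATG14 and UVRAG, and DNL and WT overlapped. ATG14 rose by 0.62 in OA against WT (adjusted p 0.000223) and UVRAG by 0.70 (adjusted p 1.05e-06), and in DNL against OA ATG14 had -0.63 (adjusted p 0.000192) and UVRAG -0.74 (adjusted p 4.95e-07). ATG14 rose by 0.42 without OA replicates 2 and 3. ATG9A, the membrane protein whose vesicles seed the autophagosome, rose by 0.28 in OA against WT (adjusted p 6.99e-05), at 195 ± 4.52 CPM in DNL, 242 ± 10.2 CPM in OA and 199 ± 3.48 CPM in WT (SD, n = 3).

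WIPI2 and VMP1 passed the test in neither model against WT. WIPI2, which recruits ATG16L1, had 60.7 ± 3.65 CPM in DNL, 68.7 ± 1.54 CPM in OA and 66.6 ± 1.40 CPM in WT, and was lower in DNL than in OA (log2 fold change -0.18, adjusted p 0.0179), a call lost without DNL replicate 2 (adjusted p 0.0897), in a range of 3.46e-05 to 0.116 over 20 alternatives. VMP1, a membrane protein of the endoplasmic reticulum that moves lipids into the growing membrane, had 223 ± 11.5 CPM in DNL, 240.2 ± 14.1 CPM in OA and 223 ± 13.5 CPM in WT. Its log2 fold change in OA against WT, 0.11 (adjusted p 0.120), became 0.15 when OA replicate 3 was left out (adjusted p 0.0408) and 0.17 when WT replicate 1 was (adjusted p 0.0327), in a range of 0.0123 to 0.359. In DNL against OA, -0.11 (adjusted p 0.128) became -0.15 without OA replicate 3 (adjusted p 0.0413), in a range of 9.91e-05 to 0.423.

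The OA libraries differed in collagen transcripts, and values without the 2 libraries that held most of them are given here. For 12 of the 42 genes (28.6%), among them MAP1LC3B, GABARAP, ULK1, ATG13, ATG14, ATG16L1 and WIPI1, the level was lowest in OA replicate 1 and highest in OA replicate 3, as the fibroblast marker sum was, and 20.8% of all genes tested ran in that order. Without OA replicates 2 and 3 the log2 fold changes in OA against WT moved by -0.42 (MITF) to 0.24 (GLA), and ATG16L1 still had 1.09 (adjusted p 2.77e-06), WIPI1 0.66 (adjusted p 0.000173) and ULK1 0.35 (adjusted p 0.000705). For 39 of the 42 genes the call in OA against WT stood as before, the others being MITF, MAP1LC3B and BECN1. In DNL against OA it stood for 38, the others being MITF, NBR1, ATG7 and ATP6V1H.

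**Figure D3:**
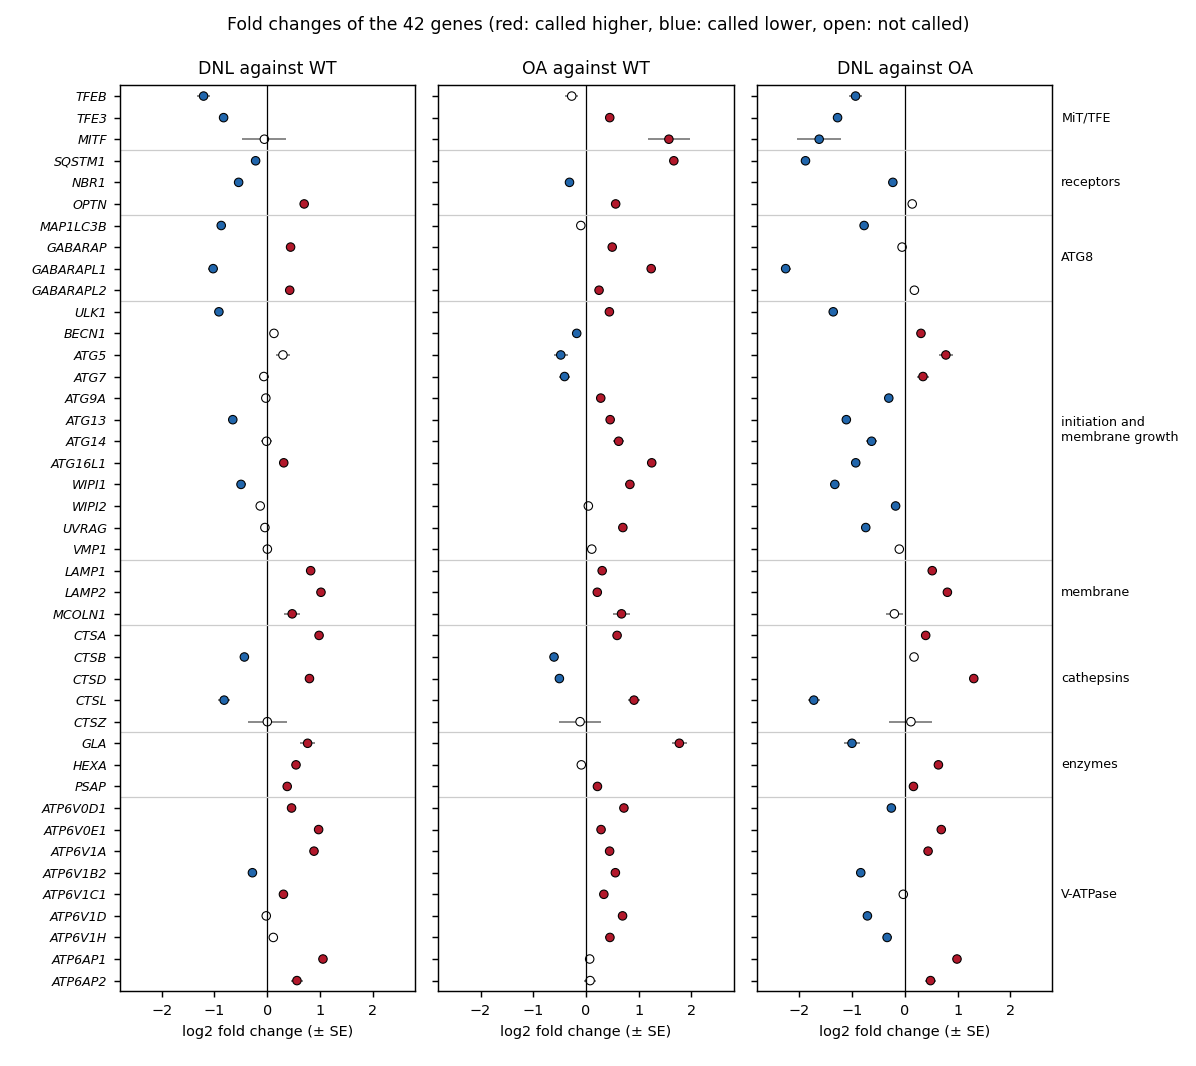
Log2 fold change of each of the 42 genes in DNL against WT, OA against WT and DNL against OA, with bars for ± SE; red points were called higher, blue points called lower and open points were not called, and rows are grouped by role. In DNL against WT the lysosomal membrane proteins lie right of 0 while TFEB and GABARAPL1 lie left of -1, and in OA against WT the largest values are those of GLA, SQSTM1 and MITF.

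The 3 lysosomal membrane proteins rose in both models against WT, 3 of 3 in each. In DNL against OA 2 were higher and 0 lower. Of all genes 27.1% rose in DNL against WT, 30.4% in OA against WT, and 31.9% were higher in DNL against OA. LAMP1 (ENSG00000185896, chromosome 13, 113297241 to 113323672), the abundant glycoprotein that lines the lysosome and whose window held 6 copies of CACGTG, had 396, 379 and 366 CPM in DNL, 271, 268 and 257 CPM in OA, and 223, 213 and 209 CPM in WT. LAMP2 (ENSG00000005893, chromosome X, 120427827 to 120469365), its relative and a receptor of chaperone-mediated autophagy in 1 of its forms, had 312, 328 and 333 CPM in DNL, 191, 180.4 and 186 CPM in OA, and 157, 166 and 156 CPM in WT. For both genes DNL was highest, OA intermediate and WT lowest, without overlap. LAMP1 rose by 0.82 in DNL (SE 0.0426, adjusted p 4.98e-09) and by 0.31 in OA (SE 0.0429, adjusted p 4.27e-05), with 0.52 in DNL against OA (adjusted p 2.51e-07). LAMP2 rose by 1.02 in DNL, 2.03-fold (SE 0.0424, adjusted p 7.01e-10), and by 0.21 in OA (SE 0.0429, adjusted p 0.000808), with 0.81 in DNL against OA (adjusted p 3.39e-09).

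MCOLN1, the calcium channel through which lysosomes signal to TFEB, had 8.01, 7.38 and 6.23 CPM in DNL, 9.24, 7.61 and 8.08 CPM in OA, and 4.76, 5.28 and 5.56 CPM in WT. Both models lay above WT and overlapped each other. Its rise in OA was 0.67 (SE 0.158, adjusted p 0.00246) and in DNL 0.47 (SE 0.155, adjusted p 0.0206). The DNL call was lost when 1 of 3 libraries was left out, with adjusted p 0.0871 for DNL replicate 1, 0.0742 for WT replicate 1 and 0.0501 for WT replicate 2, with a range of 0.00977 to 0.114 over 20 alternatives. The top of that range came from scaling by library totals, under which MCOLN1 was lower in DNL than in OA (log2 fold change -0.43, adjusted p 0.0293), where TMM scaling gave -0.20 (adjusted p 0.292).

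Cathepsins and their relatives split by gene. In DNL against WT and in OA against WT 2 of the 5 rose and 2 fell. In DNL against OA 2 were higher and 1 lower. That is 80%, 80% and 60% called, where 53.8%, 60% and 62.8% of all genes were called, the last being near. CTSD (ENSG00000117984, chromosome 11, 1752752 to 1764573), the main lysosomal aspartic protease, had 810.3, 835 and 850.2 CPM in DNL, 361, 314 and 335 CPM in OA, and 480.4, 471 and 480.0 CPM in WT. DNL lay far above WT and OA below it, with no overlap. CTSD rose by 0.80 in DNL against WT (SE 0.0463, adjusted p 1.44e-08), fell by 0.51 in OA against WT (SE 0.0469, adjusted p 9.92e-07) and was 2.47-fold higher in DNL than in OA (log2 fold change 1.31, SE 0.0474, adjusted p 9.49e-11), the highest of the 42 genes in that comparison.

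CTSL (chromosome 9, 87725519 to 87731393), a cysteine protease, ran opposite to CTSD, with 16.1, 11.7 and 15.2 CPM in DNL, 47.7, 52.7 and 42.9 CPM in OA, and 26.9, 25.3 and 24.4 CPM in WT. DNL was lowest and OA highest without overlap. CTSL fell by 0.82 in DNL against WT (SE 0.113, adjusted p 4.77e-05), rose by 0.91 in OA against WT (adjusted p 1.06e-05) and had a log2 fold change of -1.73 in DNL against OA (adjusted p 2.99e-08). CTSB, another cysteine protease, fell in both models, with 217, 229.5 and 248 CPM in DNL, 189, 213 and 213 CPM in OA, and 279, 335 and 324 CPM in WT. All libraries of both models lay below WT, at log2 fold changes of -0.43 for DNL (SE 0.0754, adjusted p 0.000521) and -0.61 for OA (SE 0.0765, adjusted p 3.54e-05). CTSB in DNL against OA was 0.17 (adjusted p 0.0696), and 0.22 without DNL replicate 1 (adjusted p 0.0412) or 0.18 without WT replicate 1 (adjusted p 0.0235), in a range of 0.00554 to 0.567 over 20 alternatives.

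CTSA (ENSG00000064601, chromosome 20, 45890144 to 45898820), a carboxypeptidase that also shields lysosomal galactosidase and sialidase, rose in both, with 311, 302 and 311 CPM in DNL, 234, 244 and 224 CPM in OA, and 162, 151 and 154 CPM in WT. The groups were separate, DNL highest and WT lowest. CTSA rose by 0.98 in DNL (SE 0.0433, adjusted p 1.12e-09) and by 0.59 in OA (SE 0.0436, adjusted p 1.19e-07), with 0.39 in DNL against OA (adjusted p 3.75e-06). On the opposite strand CTSA shares 1038 exonic bases with NEURL2, which averaged 10.9 CPM in DNL, 6.44 CPM in OA and 13.4 CPM in WT, and 200 with PLTP, the phospholipid transfer protein, which averaged 71.0 CPM in DNL, 19.6 CPM in OA and 14.2 CPM in WT. The part that shared reads had in the CTSA values was not tested. CTSZ was near the detection limit, at 1.28 ± 0.496 CPM in DNL, 1.26 ± 0.557 CPM in OA and 1.30 ± 0.260 CPM in WT (SD, n = 3), and passed no test.

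Among the other enzymes and activators, 3 of 3 rose in DNL against WT and 2 of 3 in OA against WT. Over all genes 27.1% and 30.4% rose in these comparisons. GLA (ENSG00000102393, chromosome X, 101397803 to 101408012), the alpha-galactosidase that is deficient in Fabry disease, had 10.5, 12.8 and 12.2 CPM in DNL, 28.0, 22.4 and 20.3 CPM in OA, and 5.87, 7.48 and 7.50 CPM in WT. OA was highest and WT lowest, with no overlap. GLA rose 3.41-fold in OA against WT, the largest rise of the 42 genes there (log2 fold change 1.77, SE 0.147, adjusted p 3.56e-07), and by 0.77 in DNL against WT (SE 0.147, adjusted p 0.000681), with -1.003 in DNL against OA (adjusted p 4.65e-05). PSAP, the precursor of the saposins that help lipid-degrading enzymes, had 988, 971 and 1000.3 CPM in DNL, 851, 900.3 and 892 CPM in OA, and 751, 762 and 762 CPM in WT. Its groups were ordered DNL, OA, WT from high to low, with rises of 0.38 in DNL (adjusted p 9.96e-07) and 0.22 in OA (adjusted p 0.000125). PSAP was higher by 0.16 in DNL than in OA (adjusted p 0.00107), which scaling by library totals turned to -0.070 (adjusted p 0.0928, the highest of 20 alternatives). HEXA, the alpha subunit of beta-hexosaminidase, rose by 0.55 in DNL against WT (adjusted p 4.81e-06), at 71.7 ± 0.536 CPM in DNL, 46.3 ± 1.89 CPM in OA and 49.1 ± 2.81 CPM in WT, and was -0.09 in OA against WT (adjusted p 0.221).

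The V-ATPase has a membrane sector (V0) that passes protons and a cytosolic sector (V1) that splits ATP. Of its 9 genes 6 were higher and 1 lower in DNL against WT (median 0.46), 7 were higher and 0 lower in OA against WT (median 0.45), and 4 were higher and 4 lower in DNL against OA. The shares higher were 66.7% in DNL and 77.8% in OA, where 27.1% and 30.4% of all genes were higher, and in DNL against OA they were 44.4% higher and 44.4% lower, where all genes gave 31.9% and 30.9%. ATP6AP1 (ENSG00000071553, chromosome X, 154428632 to 154436516), an accessory protein of pump assembly, had 175, 177 and 186 CPM in DNL, 86.9, 88.7 and 96.2 CPM in OA, and 88.1, 85.6 and 84.6 CPM in WT. DNL lay far above both other groups, which overlapped. ATP6AP1 rose 2.08-fold in DNL against WT (log2 fold change 1.06, SE 0.0490, adjusted p 1.82e-09), was 0.99 higher on the log2 scale in DNL than in OA (SE 0.0502, adjusted p 2.19e-09), and had 0.07 in OA against WT (adjusted p 0.255).

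ATP6V0E1 (chromosome 5, 172983757 to 173035445), a small subunit of the membrane sector, had 86.2, 80.4 and 77.4 CPM in DNL, 52.7, 51.5 and 46.6 CPM in OA, and 44.4, 40.0 and 39.7 CPM in WT. ATP6V1A, the catalytic subunit of V1, had 150.3, 162 and 173 CPM in DNL, 122, 121 and 114 CPM in OA, and 83.7, 91.0 and 87.6 CPM in WT. DNL was highest and WT lowest for both, without overlap. ATP6V0E1 rose by 0.98 in DNL (SE 0.0690, adjusted p 9.71e-08) and by 0.28 in OA (SE 0.0710, adjusted p 0.00374). ATP6V1A rose by 0.89 in DNL (adjusted p 4.17e-08) and by 0.45 in OA (adjusted p 2.15e-05). In DNL against OA their values were 0.69 for ATP6V0E1 (adjusted p 1.9e-06) and 0.44 for ATP6V1A (adjusted p 2.04e-05). ATP6AP2, the second accessory protein, also known as the prorenin receptor, rose by 0.56 in DNL against WT (adjusted p 0.000827) and was 0.49 higher in DNL than in OA (adjusted p 0.00219), at 70.1 ± 7.10 CPM in DNL, 50.6 ± 7.99 CPM in OA and 47.4 ± 4.04 CPM in WT.

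Other pump subunits were higher in OA than in DNL. ATP6V1B2, the nucleotide-binding partner of the catalytic subunit, had 71.9, 64.3 and 73.7 CPM in DNL, 123, 125 and 128 CPM in OA, and 86.4, 83.2 and 85.8 CPM in WT. DNL lay below WT and OA above it. Its log2 fold changes were -0.28 in DNL against WT (SE 0.0556, adjusted p 0.00088), 0.56 in OA against WT (SE 0.0555, adjusted p 1.93e-06) and -0.84 in DNL against OA (adjusted p 3.38e-08). ATP6V1D, part of the central shaft, had 22.5, 21.9 and 24.2 CPM in DNL, 34.4, 38.3 and 39.9 CPM in OA, and 23.3, 21.5 and 24.8 CPM in WT. It rose by 0.69 in OA against WT (adjusted p 1.43e-05), while DNL overlapped WT (log2 fold change -0.02, adjusted p 0.872).

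ATP6V0D1, the V0 subunit that joins the sectors, rose by 0.46 in DNL (adjusted p 2.63e-05) and by 0.72 in OA (adjusted p 4.02e-07), at 67.5 ± 3.11 CPM in DNL, 80.4 ± 5.11 CPM in OA and 49.0 ± 0.706 CPM in WT (SD, n = 3), and was lower in DNL than in OA (log2 fold change -0.26, adjusted p 0.00237). ATP6V1H, a regulatory subunit, rose by 0.45 in OA against WT (adjusted p 0.000485). In DNL it was at 33.9 ± 2.67 CPM, against 31.3 ± 1.62 CPM in WT (adjusted p 0.265), and it was lower in DNL than in OA (log2 fold change -0.34, adjusted p 0.00397), a value that was -0.23 without OA replicates 2 and 3 (adjusted p 0.1103, the highest of 20 alternatives). ATP6V1C1, which holds V1 on V0, rose by 0.31 in DNL (adjusted p 0.00017) and by 0.34 in OA (adjusted p 7.02e-05), with -0.03 in DNL against OA (adjusted p 0.628). Scaling by library totals made ATP6V1C1 lower in DNL than in OA (log2 fold change -0.26, adjusted p 0.000693) and ended the difference of ATP6AP2 (adjusted p 0.0622), so that 3 pump genes were higher and 5 lower.

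Levels of different genes were set side by side per kilobase of transcript, as mean CPM per kb ± SD over 3 libraries. In DNL the order began with CTSD at 392 ± 9.49, PSAP at 343 ± 5.10, CTSA at 143 ± 2.37 and LAMP1 at 141 ± 5.66, and the ranges of mean ± SD overlap for the last 2. SQSTM1 led in OA at 327 ± 7.82 CPM per kb, followed by PSAP at 307 ± 9.21, CTSD at 158 ± 11.0 and MAP1LC3B at 143 ± 10.5, where the ranges of mean ± SD overlap for the last 2. PSAP led in WT at 264 ± 2.15 CPM per kb, followed by CTSD at 225 ± 2.45, MAP1LC3B at 153 ± 2.77 and SQSTM1 at 103 ± 3.08. SQSTM1 thus had rank 5 in DNL, rank 1 in OA and rank 4 in WT. At the low end, MITF had the lowest level in WT at 0.116 ± 0.0241 CPM per kb and CTSZ the next at 0.867 ± 0.174.

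A further 161 genes of the same organelles were listed by function, of which 150 were tested. Of these, 75 were higher and 33 lower in DNL against WT (median 0.23), 59 higher and 47 lower in OA against WT (median 0.06), and 72 higher and 39 lower in DNL against OA (median 0.21). Over all genes tested 27.1% were higher and 26.8% lower in DNL against WT, where these genes gave 50% and 22%. The further genes gave in OA against WT 39.3% and 31.3%, where all genes gave 30.4% and 29.7%, so the share lower was near that of all genes. They gave 48% and 26% in DNL against OA, where all genes gave 31.9% and 30.9%. Scaling by library totals gave 53 and 47 in DNL against WT, and 50 and 59 in DNL against OA.

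Of 36 other lysosomal hydrolases and activators tested, 23 were higher and 5 lower in DNL against WT (median 0.69). These shares were 63.9% and 13.9%, where all genes gave 27.1% and 26.8%. The 5 became 3 without DNL replicate 1, DNL replicate 2 or any single WT replicate. LIPA, the lysosomal acid lipase that frees fatty acids and cholesterol from delivered lipids, averaged 362 ± 6.61 CPM in DNL, 185 ± 12.1 CPM in OA and 134 ± 1.08 CPM in WT (SD, n = 3), a 2.70-fold rise in DNL against WT (adjusted p 6.47e-11). SMPD1, the acid sphingomyelinase, fell by 0.95 on the log2 scale, at 11.9 ± 1.86 CPM in DNL and 22.9 ± 1.34 CPM in WT (adjusted p 2.08e-05). In OA against WT 11 hydrolases rose and 13 fell, shares of 30.6% and 36.1% near the 30.4% and 29.7% of all genes, with IDS (iduronate sulfatase) 2.94-fold higher (adjusted p 4.35e-09) and AGA (aspartylglucosaminidase) at a log2 fold change of -1.10 (adjusted p 3.05e-07). In DNL against OA 28 (77.8%) were higher and 3 (8.33%) lower, where all genes gave 31.9% and 30.9%. ARSB, a sulfatase, was 2.29-fold higher there, at 328 ± 3.60 CPM in DNL and 144 ± 3.85 CPM in OA (adjusted p 1.05e-10).

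Of 17 other V-ATPase genes tested, 10 (58.8%) were higher and 1 (5.88%) lower in DNL against WT, where all genes gave 27.1% and 26.8%. In OA against WT 11 (64.7%) were higher and 3 (17.6%) lower, where all genes gave 30.4% and 29.7%. The 11 became 7 without OA replicate 1, OA replicate 2 or WT replicate 3, and 6 without WT replicate 2. Scaling by library totals gave 6 higher and 3 lower in DNL against WT. RNASEK, which associates with the pump, rose by 0.68 in DNL (adjusted p 1.36e-06) and by 0.70 in OA (adjusted p 8.87e-07). ATP6V0D2, an isoform of the V0 d subunit, was at 0.769 ± 0.104 CPM in DNL, 8.06 ± 0.326 CPM in OA and 0.973 ± 0.388 CPM in WT, with a log2 fold change of -3.36 in DNL against OA (adjusted p 7.35e-07). Among 20 other lysosomal membrane proteins 10 (50%) rose and 3 (15%) fell in DNL against WT, where all genes gave 27.1% and 26.8%. NPC1, the cholesterol exporter, was up by 0.45 there (adjusted p 3.56e-07). In OA against WT 6 (30%) rose and 6 (30%) fell, near the 30.4% and 29.7% of all genes. The ion channel TPCN1 had -1.05 in OA against WT (adjusted p 6.44e-09). Of 16 genes for delivery of enzymes and lysosome fusion, 11 (68.75%) were higher and 3 (18.75%) lower in DNL against WT. All genes gave 27.1% and 26.8% there. In OA against WT 6 (37.5%) were higher and 6 (37.5%) lower, where all genes gave 30.4% and 29.7%. SORT1, the sortilin receptor, averaged 436 ± 12.7 CPM in DNL, 145 ± 2.35 CPM in OA and 249.99 ± 6.93 CPM in WT, a rise of 0.80 in DNL (adjusted p 2.25e-09) and a fall in OA (log2 fold change -0.79, adjusted p 3.09e-09).

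Of 27 other core autophagy genes tested, 7 (25.9%) were higher and 11 (40.7%) lower in DNL against WT, where all genes gave 27.1% and 26.8%. The share higher was thus near that of all genes. In DNL against OA 6 (22.2%) were higher and 15 (55.6%) lower, against 31.9% and 30.9% of all genes. In OA against WT 12 (44.4%) rose and 8 (29.6%) fell, against 30.4% and 29.7% of all genes, the share that fell being near theirs. ATG2A, a lipid transfer protein of the growing membrane, averaged 58.0 ± 2.58 CPM in DNL and 154 ± 3.14 CPM in WT, a log2 fold change of -1.41 (adjusted p 1.56e-10). RUBCN (Rubicon), which restrains the lipid kinase complex, rose 2.33-fold in OA against WT (adjusted p 5.43e-09), and STX17, the syntaxin of autophagosome fusion, had -0.97 there (adjusted p 1.54e-08). Of 17 other receptors, 6 (35.3%) were higher and 6 (35.3%) lower in DNL against WT, where all genes gave 27.1% and 26.8%. In OA against WT 4 (23.5%) were higher and 7 (41.2%) lower, where all genes gave 30.4% and 29.7%. Scaling by library totals gave 3 higher and 9 lower in DNL against WT. BNIP3L, a mitochondrial receptor, rose 4.0-fold in DNL against WT, at 175 ± 2.78 CPM in DNL and 43.8 ± 2.14 CPM in WT (adjusted p 1.3e-11). STBD1, a receptor for glycogen, rose 4.73-fold in OA against WT, at 58.1 ± 0.300 CPM in OA and 12.2 ± 1.21 CPM in WT (adjusted p 2.52e-10).

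The 17 tested genes of nutrient sensing and MiT/TFE control gave 8 (47.1%) higher and 4 (23.5%) lower in DNL against WT. All genes gave 27.1% and 26.8%, so the share lower was near theirs. Scaling by library totals turned these counts to 5 higher and 7 lower. In OA against WT 9 (52.9%) were higher and 4 (23.5%) lower, where all genes gave 30.4% and 29.7%. Without DNL replicate 1 the 8 became 5. FLCN (folliculin), part of the complex through which amino acids hold TFEB and TFE3 in the cytoplasm, averaged 23.6 ± 1.62 CPM in DNL, 55.3 ± 2.86 CPM in OA and 37.6 ± 0.929 CPM in WT. It fell by 0.67 in DNL against WT (adjusted p 4.41e-06), and its log2 fold change in DNL against OA was -1.23 (adjusted p 9.09e-09). FNIP1 and FNIP2, alternative partners of FLCN, differed in OA against WT, where FNIP1 rose by 0.90 (adjusted p 6.39e-08) and FNIP2 had -0.74 (adjusted p 1.15e-07). Promoter windows were at hand for 124 of the 161 further genes of all these lists. CACGTG stood in 27 of the 124 (21.8%), TCACGTGA in 13 (10.5%) and the full CLEAR palindrome in 6 (4.84%). The windows of all genes of the table gave 8.91%, 1.47% and 0.595%. The further genes too were picked by function, so these shares are no independent test.

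**Figure D4:**
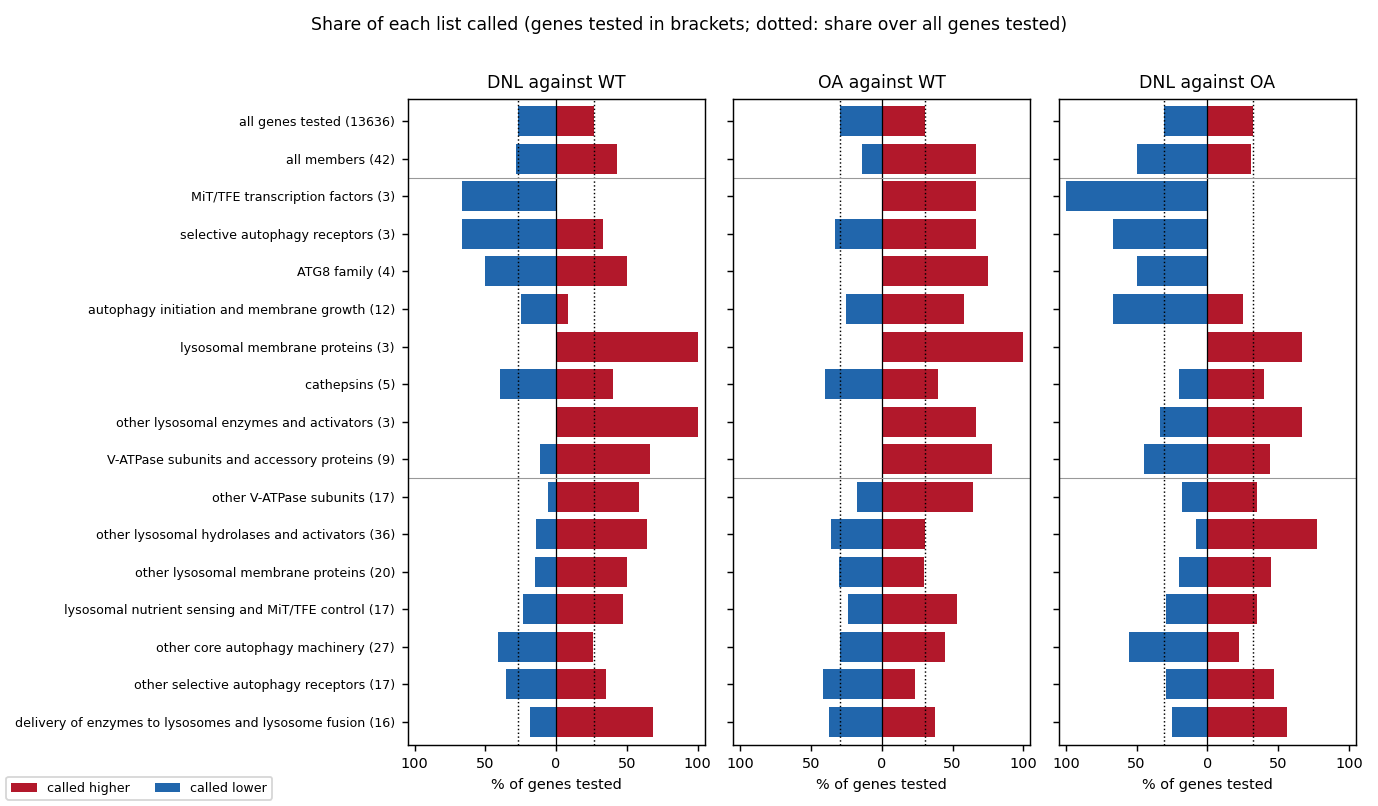
Share of each list of genes called higher (red, to the right) and lower (blue, to the left) in DNL against WT, OA against WT and DNL against OA, as a percentage of the genes tested, with the number tested in brackets and dotted lines at the shares over all 13636 genes tested. Lysosomal membrane proteins reach 100% higher in both models against WT, and other lysosomal hydrolases have more higher than lower calls in DNL against WT and in DNL against OA.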

How the data were processed

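Per the labels' protocols, total RNA of HepG2 was purified with a spin-column kit, and stranded libraries were made after depletion of ribosomal RNA. The authors deposited estimated counts per gene, made with kallisto 0.48.0 after FastQC 0.11.9 on GRCh38, per the submitters' processing notes. For neither the strand setting nor the annotation release is a value given in the sources used here, so reads of overlapping genes on opposite strands or of near-identical copies may be divided between them; exons of 11 of the 42 genes overlap another gene of the table. Of 19317 gene IDs, 19316 had a symbol, and coordinates and transcript lengths are from GENCODE release 29.

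The rounded estimated counts went through filterByExpr and TMM scaling into edgeR 4.0.16 (robust quasi-likelihood fit and test, R 4.3.3) as 1 fit of 9 samples with group as the only factor. Adjusted p is Benjamini-Hochberg over 13636 genes, and a gene was called below 0.05. SE is that of the log2 fold change, from the F statistic. Replicates varied by 10.6% (coefficient of variation, from a common dispersion of 0.0112). Chi-square per degree of freedom between replicates was 5.36 to 16.1, so no library pair agreed within sampling noise. The floor of 3 counts was 0.0697 to 0.383 CPM and covers counting error only. The procedure was also run on simulated counts, drawn with the spread of the fit itself and with few genes changed. Such a run cannot test the scaling, since far more genes were called here. Alternatives used RLE scaling, library totals, other filters, DESeq2 1.42.0, limma-voom (limma 3.58.1), thinned libraries, 2-group fits, a replicate block and left-out libraries.

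The 42 genes, the other lists and the tests were chosen with earlier results of these data known. All 42 genes were named. Values of every library were to be given for the 4 largest called rises and falls per comparison (the higher group averaging 5 CPM or more), and for TFEB, TFE3, MITF, SQSTM1, the ATG8 genes, LAMP1 and CTSD. Values of every library are also shown for further members, chosen after their values were seen. Of each other list, the gene with the smallest adjusted p per direction and comparison could be named. PIK3C3, PIK3R4 and NRBF2 were also named, after their values were seen. A planned comparison of the ATG8 proteins was not made, since their sequences were not used here.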

Additional observations from a re-analysis of the deposited data

How the results depend on the processing

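Each of the 126 log2 fold changes of the 42 genes was recomputed under 20 alternatives. Of 2520 values, 2455 kept their side of the threshold, 45 of them with a changed sign, 29 lost the call, 34 gained one and 2 more changed sign with a call in 1 of the fits. The 45 were called in neither fit, belong to 18 results with log2 fold changes of at most 0.18 in size, and 7 of them came with scaling by library totals. The 2 with a call came with that scaling, where VMP1 in DNL against WT became -0.16 (adjusted p 0.0197, range over its alternatives 0.0197 to 0.998) and PSAP in DNL against OA became -0.070 (adjusted p 0.0928, range 4.49e-06 to 0.0928). The change of scaling itself moved the median of all genes. Under the same scaling 59 of the 150 further genes were lower in DNL against OA, in place of 39. Leaving out OA replicates 1 and 3 left 3 of the 42 genes lower in OA against WT in place of 6, with 1 OA library assumed to vary like the other groups.

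Leaving out 1 library at a time gave 17 to 19 higher and 12 lower among the 42 genes in DNL against WT, 27 to 29 and 6 to 7 in OA against WT, and 13 to 15 and 20 to 22 in DNL against OA. Over the further genes it gave 64 to 76 and 30 to 36, 50 to 58 and 41 to 49, and 65 to 71 and 36 to 40 in the same order. Replicate numbers were not taken as pairing. Between groups, deviations of same-numbered samples from their group means correlated at -0.0212 to 0.106, and those of different-numbered samples at -0.108 to 0.0574. Of the 9 libraries 4 correlated best with their own number. The ranges overlap, so they do not settle whether the numbers mark pairs. With the replicate number as a block, the 42 genes gave 18 higher and 12 lower calls in DNL against WT, 28 and 6 in OA against WT, and 15 and 21 in DNL against OA, GABARAPL2 and CTSB being added. Depth limits the precision of the genes with few counts, such as MITF and CTSZ.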
